A study of Mus musculus with 7 samples.

Results

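Chemokines are small secreted proteins that draw leukocytes toward a tissue, and colony-stimulating factor 1 (CSF1) is the growth factor on which macrophages depend. The genes described here are 9 chemokines, Ccl2, Ccl5, Ccl7, Cxcl1, Cxcl5, Cxcl10, Cxcl12, Cxcl14 and Cxcl16, together with Csf1. They were chosen by gene symbol, as 10 of the 23996 genes in the authors' expression tables, and followed through all 7 RNA-seq libraries of the study. The cells were mouse 3T3-L1, an embryonic fibroblast line that becomes fat cells when given hormonal inducers, although the labels give their cell type as adipocyte.

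The 0h Control library came from confluent cells before differentiation. The 4h MDI and 24h MDI libraries were taken 4 h and 24 h after the cells received MDI, a medium with IBMX (a phosphodiesterase inhibitor that raises cAMP), dexamethasone (a synthetic glucocorticoid, Dexa in the labels) and insulin. The 4h CM and 24h CM libraries were taken at the same times from cells given conditioned medium (CM), which was MDI that had been on other 3T3-L1 cells during 48 h of differentiation. The Pro-MDI and Pro-CM libraries came from cells that were given MDI or CM while preconfluent, with no time in the labels. Every treated library therefore had MDI components in its medium, and no library at 4 h or 24 h went without them, so the inducers, the change of medium and elapsed time cannot be told apart in a comparison with 0h. The stated aim was a search for a factor on which this differentiation depends. There was 1 library per condition, so no value below has a replicate error, and all cells were of 1 line.

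Most chemokines act through receptors on leukocytes that couple to G proteins. In fat tissue CCL2, made by preadipocytes and adipocytes as well as by leukocytes, is known for recruiting monocytes that carry its receptor CCR2, and CCL7 uses the same receptor. CCL5 attracts T cells and monocytes, CXCL1 and CXCL5 attract neutrophils through CXCR2, CXCL10 is an interferon-induced ligand of CXCR3, and CXCL12 binds CXCR4 and is taken up by the scavenger receptor ACKR3. Many of these genes are switched on by NF-kB in response to inflammatory cytokines and repressed by glucocorticoids, and several encode mRNAs with AU-rich elements in the 3′ UTR, to which the decay factor ZFP36 (tristetraprolin) binds.

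Promoter sequences are shown for the measured members that had an entry in the RefSeq promoter table (GRCm38.p6), because these genes differed in how their levels moved. Entries were found for 5 of the 10 genes, Cxcl1, Cxcl10, Cxcl12, Cxcl14 and Csf1. Each sequence runs 5′ to 3′ on the strand of the gene, from 250 bases before the start site to 50 bases after it. Capitals mark matches to the kappaB consensus, the motif bound by NF-kB. The Cxcl1 sequence lies at chr5:90890995-90891294 on the plus strand, that of Csf1 at chr3:107760420-107760719 on the minus strand, and that of Cxcl12 at chr6:117168285-117168584 on the plus strand.
Cxcl1: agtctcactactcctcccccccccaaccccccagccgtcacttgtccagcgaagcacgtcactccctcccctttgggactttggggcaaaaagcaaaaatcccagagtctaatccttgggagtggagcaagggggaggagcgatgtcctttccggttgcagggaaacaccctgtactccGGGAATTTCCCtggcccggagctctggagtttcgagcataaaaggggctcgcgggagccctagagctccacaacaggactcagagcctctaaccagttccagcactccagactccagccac
Csf1: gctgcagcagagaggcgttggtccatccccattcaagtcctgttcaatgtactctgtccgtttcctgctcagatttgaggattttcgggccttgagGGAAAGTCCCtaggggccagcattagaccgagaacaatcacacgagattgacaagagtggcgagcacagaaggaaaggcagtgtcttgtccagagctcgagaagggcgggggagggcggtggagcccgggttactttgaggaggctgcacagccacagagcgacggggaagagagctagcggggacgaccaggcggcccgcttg
Cxcl12: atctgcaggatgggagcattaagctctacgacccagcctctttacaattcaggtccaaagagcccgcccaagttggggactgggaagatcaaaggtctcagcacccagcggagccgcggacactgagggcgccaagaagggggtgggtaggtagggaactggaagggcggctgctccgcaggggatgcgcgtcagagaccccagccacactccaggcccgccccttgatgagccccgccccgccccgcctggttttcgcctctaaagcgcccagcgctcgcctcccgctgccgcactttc
On either strand, the kappaB consensus was found in 8.49% of 32544 mouse promoters of this length. The Cxcl1 promoter held 2 overlapping matches, on opposite strands, between positions −71 and −61 from the start site, and the Csf1 promoter held 1, from −154 to −145. The Cxcl10 promoter held kappaB matches from −159 to −150 and, overlapping each other, from −104 to −94. The other motifs searched were the AP-1 site TGANTCA (7.79% of promoters), the cAMP response element TGACGTCA (1.8%), the interferon-stimulated element GAAANNGAAA (3.45%) and the full glucocorticoid response element (0.00922%, or 3 promoters). Cxcl10 held an AP-1 match from −74 to −68 and an interferon-stimulated element from −213 to −204, and Cxcl14 held 1 interferon-stimulated element. None of the 5 motifs was found in these 300 bases of Cxcl12.

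The 3′ UTRs were searched for ATTTA, the core of AU-rich elements, in GENCODE M21 transcripts on GRCm38. Cxcl1 held 7 in 592 bases, a density of 11.82 per kb that only 0.656% of 10673 measured genes exceeded, where the median was 1.25 per kb. It also held 2 copies of the longer nonamer TTATTTATT, which 7.28% of these genes carry and no other member did. Densities were 4.60 per kb in Ccl7, 4.50 in Cxcl5, 3.64 in Ccl2, 1.89 in Csf1 and 0.77 in Cxcl12, and Ccl5 held none. The densest 30 bases of Cxcl1 (chr5:90892606-90892635, plus strand) and of Csf1 (chr3:107741103-107741132, minus strand) are shown with each ATTTA in capitals, as DNA, for the contrast in spacing.
Cxcl1 3′ UTR: gtcctATTTATTTAtgtATTTATTTAttcc
Csf1 3′ UTR: taaggtcATTTAaatatctATTTAaaaaat

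Levels are FPKM, the sequenced fragments of a gene relative to its transcript length and to the mapped fragments of the library, so that levels of different genes can be set side by side. Sequencing depth is unknown, since no read totals accompany the FPKM. Summed FPKM ran from 558532 in 0h Control to 714427 in 4h MDI, and 10530 to 11101 genes reached an FPKM of 1 per library. A gene was taken as measured where it reached an FPKM of 1 in at least 1 of the libraries compared. Of the 10 members, 7 were measured in at least 1 library and 3 (Cxcl10, Cxcl14 and Cxcl16) in none. Of all 70 levels, 46 reached an FPKM of 1. Because RNA was taken from whole cultures, fewer cells that express a gene and less RNA per cell cannot be told apart.

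Cxcl12 stood far above the other members in every library, followed in most libraries by Csf1. Its FPKM was 1085 in 0h Control, 949.7 in 4h MDI, 784 in 4h CM, 195 in 24h MDI, 333 in 24h CM, 333 in Pro-MDI and 255 in Pro-CM. The confluent culture and both 4 h cultures lay together at the top, and both 24 h cultures and both preconfluent ones lay lower. The highest level was 5.56 times the lowest. In the order of its levels, the only neighbouring libraries at least 2-fold apart on the log2(FPKM + 1) scale were 4h CM and Pro-MDI.

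**Figure D1:**
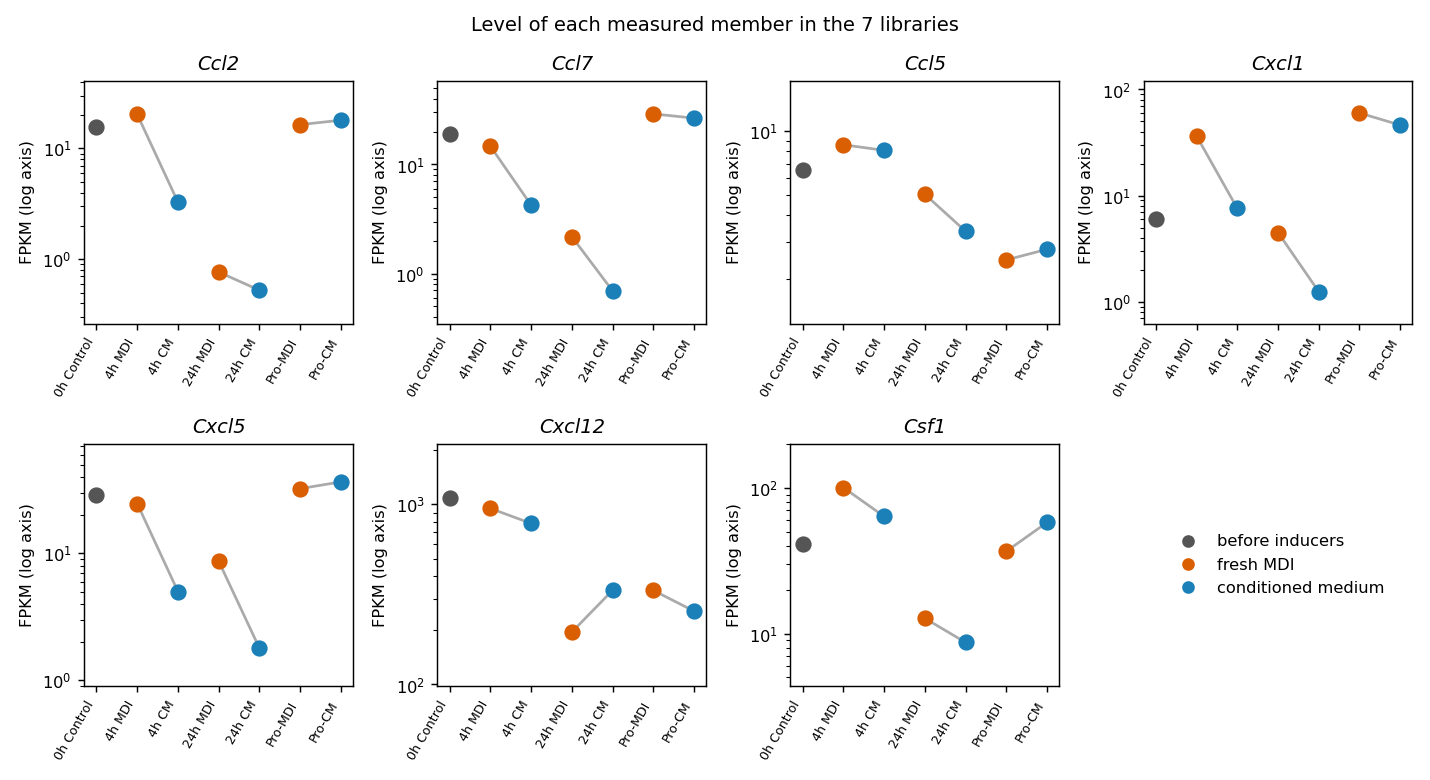
FPKM on log axes (each panel with its own range) for the 7 measured members in each of the 7 libraries, 1 point per library, with a grey line joining fresh MDI to conditioned medium at the same stage. Ccl2, Ccl7, Cxcl1, Cxcl5 and Csf1 are lowest in 24h CM, Cxcl12 in 24h MDI and Ccl5 in Pro-MDI.

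Ccl2 and Ccl7, the monocyte attractants, had levels that were high in the confluent, 4h MDI and preconfluent cultures and low at 24 h. The FPKM of Ccl2 (chr11:82035577-82037452) was 15.6 in 0h Control, 20.3 in 4h MDI, 3.28 in 4h CM, 0.767 in 24h MDI, 0.525 in 24h CM, 16.4 in Pro-MDI and 18.0 in Pro-CM. The 4 highest libraries lay within 2-fold of each other, 4h CM lay between, and both 24 h libraries were under an FPKM of 1. Ccl7 (chr11:82045712-82047523) had an FPKM of 18.8 in 0h Control, 14.7 in 4h MDI, 4.25 in 4h CM, 2.18 in 24h MDI, 0.696 in 24h CM, 29.1 in Pro-MDI and 26.6 in Pro-CM. Its highest level, in Pro-MDI, was 41.8 times its lowest, in 24h CM, and for Ccl2 the ratio of 4h MDI to 24h CM was 38.6.

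Ccl5 varied least among the measured members. Its FPKM (chr11:83525779-83530518) was 6.54 in 0h Control, 8.60 in 4h MDI, 8.09 in 4h CM, 5.01 in 24h MDI, 3.35 in 24h CM, 2.46 in Pro-MDI and 2.76 in Pro-CM. Unlike Ccl2 and Ccl7, it was lowest in the preconfluent cultures. The highest level was 3.5 times the lowest, and all 6 pairs of neighbours in the order of its levels were under 2-fold apart.

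The neutrophil attractants Cxcl1 and Cxcl5 were both highest in the preconfluent cultures and lowest in 24h CM. Cxcl1 (chr5:90891245-90893115) had an FPKM of 6.05 in 0h Control, 36.5 in 4h MDI, 7.58 in 4h CM, 4.49 in 24h MDI, 1.24 in 24h CM, 60.1 in Pro-MDI and 46.2 in Pro-CM. It formed a high group of 4h MDI and both preconfluent libraries and a group of 4h CM, 0h Control and 24h MDI, with 24h CM alone at the bottom. Its range of 48.3-fold was the widest of the measured members. Cxcl5 (chr5:90759298-90761625) had an FPKM of 28.9 in 0h Control, 24.8 in 4h MDI, 5.001 in 4h CM, 8.68 in 24h MDI, 1.79 in 24h CM, 32.5 in Pro-MDI and 36.7 in Pro-CM. It differed from Cxcl1 in the confluent culture, where Cxcl5 was already near its highest level and Cxcl1 was not.

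Csf1, the macrophage growth factor, was highest at 4 h. Its FPKM (chr3:107741048-107760469) was 40.9 in 0h Control, 101 in 4h MDI, 63.7 in 4h CM, 12.7 in 24h MDI, 8.68 in 24h CM, 36.7 in Pro-MDI and 58.0 in Pro-CM. The confluent, 4 h and preconfluent libraries followed each other in steps under 2-fold, and both 24 h libraries lay below all of them. The highest level was 11.6 times the lowest.

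Cxcl10, Cxcl14 and Cxcl16 did not reach an FPKM of 1 in any library. Cxcl14, a chemokine of epithelia and other tissues, is listed at 0 in all 7 libraries. The FPKM of Cxcl10 was 0.779 in 0h Control and at most 0.358, in 24h CM, elsewhere. Cxcl16, a chemokine made as a transmembrane protein and shed by ADAM10, had an FPKM of 0.669 in 0h Control and at most 0.244, in 4h CM, elsewhere. The tables give Cxcl10 the same locus as Art3 and Cxcl11 (chr5:92331841-92414627) and Cxcl16 the same locus as Zmynd15 (chr11:70454234-70466199), so how reads were divided among these genes is uncertain. The loci of Cxcl12 (chr6:117168535-117181368) and Cxcl14 (chr13:56288643-56296551) are not shared with another listed gene. Loci are those in the authors' tables, whose build is not given in the sources used here, with 1 added to each start.

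At 4 h in fresh MDI, Cxcl1 and Csf1 were higher than at 0h and no member was lower, whereas at 4 h in CM no member was higher and Ccl2, Ccl7 and Cxcl5 were lower. These calls follow a rule of size, a log2(FPKM + 1) that differs by 1 or more between 2 libraries, and not a test. In 4h MDI 2 of 7 measured members were higher, beside 13.5% of all 11332 measured genes, and 0 were lower, beside 14.1%. The ratio of FPKM to 0h was 6.03 for Cxcl1 and 2.46 for Csf1. In 4h CM 0 of 7 were higher and 3 were lower, where 9.53% and 9.35% of 11278 genes were. Levels at 0h were 4.75 times those in 4h CM for Ccl2, 4.43 times for Ccl7 and 5.79 times for Cxcl5. The median difference of the members was 0.35 in fresh MDI and −0.47 in CM, and that of all measured genes −0.06 and −0.04. All comparisons with 0h share the 0h Control library.

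At 24 h the members were lower than at 0h in either medium, and none was higher. In 24h MDI 5 of 7 were lower, namely Ccl2, Ccl7, Cxcl5, Cxcl12 and Csf1, where 11% of 11404 genes were lower and 8.92% higher. In 24h CM 6 of 7 were lower, the same genes and Cxcl1, where 9.98% of 11413 genes were lower and 8.21% higher. The level of Ccl2 at 0h was 20.3 times that in 24h MDI and 29.7 times that in 24h CM, and for Ccl7 the ratios were 8.65 and 27.1. For Csf1 they were 3.22 and 4.72, and for Cxcl12 5.56 and 3.26. The member left out of both counts, Ccl5, differed by −0.33 and −0.79 on the log2 scale. The median difference of the members was −1.63 in fresh MDI and −2.11 in CM, and that of all measured genes −0.02 and 0.00.

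Between 4 h and 24 h the members were lower at the later time in each medium. In MDI 6 of 7 measured members were lower and 0 higher, where 13.6% of 11132 genes were lower and 12.1% higher. In CM 7 of 7 were lower and 0 higher, where 7.24% of 11111 genes were lower and 6.49% higher. With a pseudocount of 5 in place of 1 only 3 of the members were lower, where 465 of 11111 genes were. The level of Csf1 at 4 h was 7.91 times that at 24 h in MDI and 7.34 times in CM. For Cxcl1 the ratios were 8.13 and 6.1, for Ccl2 26.4 and 6.24, and for Cxcl12 4.86 and 2.35. The median difference of the members was −2.31 in MDI and −1.49 in CM, beside −0.01 over all genes in both.

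A model over both media was used to test time. limma was fitted to log2(FPKM + 1) of the 7 libraries, with terms for stage and for medium, which leaves 2 residual degrees of freedom. These hold the difference in medium effect between stages and the noise of libraries, and none of it is a spread between replicate cultures. For 24 h against 0h, 2 of 7 members fell and 0 rose at a Benjamini-Hochberg adjusted p under 0.05, where 6.37% of 11724 genes fell and 5.27% rose. Ccl7 fell by 3.10 on the log2 scale (SE 0.46, limma adjusted p = 0.0304) and Cxcl12 fell by 2.08 (SE 0.40, adjusted p = 0.0445). Ccl2, at −3.34 (SE 0.78), and Csf1, at −1.86 (SE 0.44), had limma adjusted p of 0.0651 and 0.0657. Cxcl5, at −2.53, Cxcl1, at −1.01, and Ccl5, at −0.56, had limma adjusted p of 0.097, 0.265 and 0.204.

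For 24 h against 4 h, 4 of 7 members fell in limma and 0 rose, where 8.71% of 11724 genes fell and 9.43% rose. Csf1 fell by 2.82 (SE 0.36, limma adjusted p = 0.0216), Cxcl1 fell by 2.35 (SE 0.44, adjusted p = 0.0367), Ccl7 fell by 1.97 (SE 0.37, adjusted p = 0.0374) and Cxcl12 fell by 1.75 (SE 0.32, adjusted p = 0.0365). Each of these 4 was lower at 24 h in both media. Ccl5, at −0.87, Ccl2, at −2.54, and Cxcl5, at −1.26, had limma adjusted p of 0.0528, 0.0584 and 0.182. For 4 h against 0h, 0 of 7 members passed limma in either direction, where 8.23% of genes rose and 7.99% fell. In the same contrast 0 members had an unadjusted p under 0.05 in limma, beside 4661 of 11724 genes. The estimate there was 1.35 for Cxcl1 (limma adjusted p = 0.14) and 0.95 for Csf1 (adjusted p = 0.181).

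These calls depend on the genes and libraries fitted. With no filter on low values, 0 members passed limma in either 24 h contrast, where 150 genes rose and 673 fell for 24 h against 0h and 2 rose and 3 fell for 24 h against 4 h. With the preconfluent pair left out of the fit, which leaves 1 residual degree of freedom, 4 members fell for 24 h against 0h, 6 for 24 h against 4 h and 1 (Cxcl5) for 4 h against 0h. In that fit 704, 973 and 729 of 11617 genes fell in these contrasts, in the same order.

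**Figure D2:**
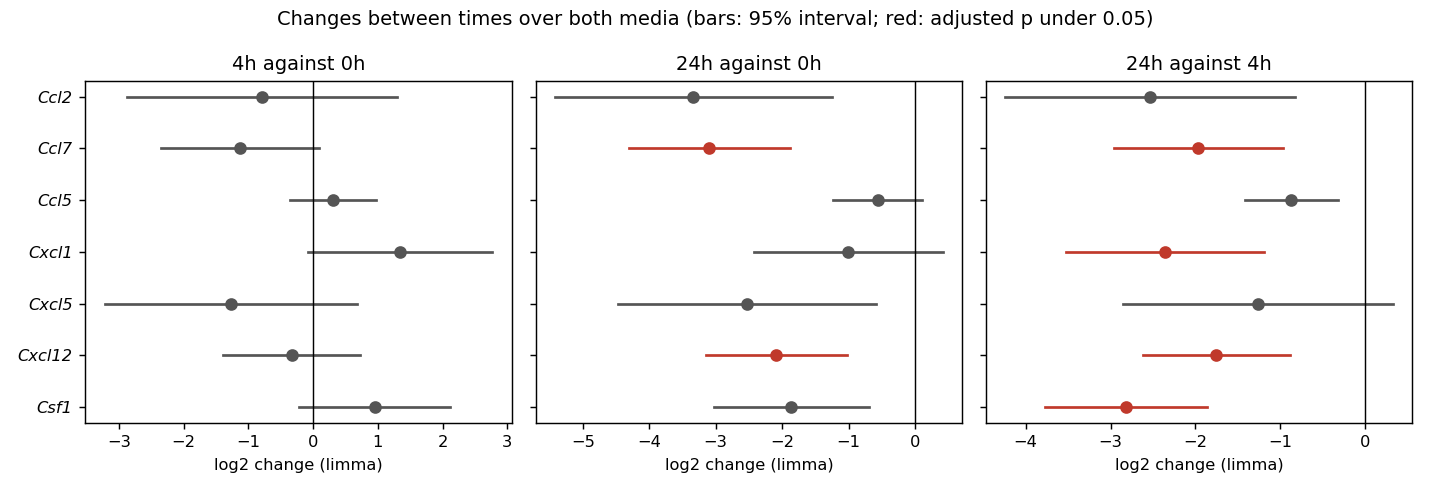
Estimated log2 change of each measured member between times over both media (x axes, limma on 7 libraries), with bars for the 95% interval and red for an adjusted p under 0.05 over 11724 genes. Ccl7 and Cxcl12 are red for 24 h against 0h, Ccl7, Cxcl1, Cxcl12 and Csf1 for 24 h against 4 h, and none for 4 h against 0h.

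FPKM sums differed between libraries, and rescaling to TPM (which gives each library the same sum) moved the balance of all genes. The median limma change of all genes against 0h became −0.34 at 4 h and −0.24 at 24 h. By limma 627 genes rose and 2154 fell at 4 h against 0h on the TPM scale, beside 965 and 937 as deposited, and 422 rose and 1125 fell at 24 h, beside 618 and 747. By the rule of size, 1035 genes were higher and 2990 lower in 4h MDI on the TPM scale (1531 and 1599 as deposited), and 739 and 2048 in 4h CM (1075 and 1054). The corresponding counts were 748 and 2189 in 24h MDI (1017 and 1259) and 784 and 1722 in 24h CM (937 and 1139). For 24h CM against 24h MDI they were 320 and 155 (211 and 164). On the TPM scale, where 9 members passed the filter, 5 fell at 24 h against 0h in limma, among them Cxcl16, which had not reached an FPKM of 1. Csf1 in 4h MDI was 0.93 above 0h, short of the rule.

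Conditioned medium was next compared with fresh MDI at each stage, the contrast named in the study's title. At 4 h, Ccl2, Ccl7, Cxcl1 and Cxcl5 were lower in CM. These 4 of 7 measured members were lower where 2.95% of 10800 genes were, and 0 were higher where 1.1% were. Levels in 4h MDI were 6.19 times those in 4h CM for Ccl2, 4.95 times for Cxcl5, 4.82 times for Cxcl1 and 3.47 times for Ccl7. Csf1, Cxcl12 and Ccl5 differed by −0.65, −0.28 and −0.08 on the log2 scale. The median difference of the members was −1.58, beside 0.03 over all genes.

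At 24 h the same direction was seen for Cxcl1 and Cxcl5, which were lower in CM. These 2 of 6 measured members were lower where 1.49% of 10972 genes were, and 0 were higher where 1.92% were. The ratio of 24h MDI to 24h CM was 4.86 for Cxcl5 and 3.61 for Cxcl1. Only 1 of them, Cxcl5, met the rule with a pseudocount of 5 or an FPKM minimum of 5, and with a pseudocount of 0.1 there were 3, as Ccl7 then differed by −1.52. Under these settings 83 of 10972, 133 of 8532 and 245 of 10972 genes were lower, in the same order. With a pseudocount of 1 Ccl7 differed by −0.91, at an FPKM in 24h MDI that was 3.13 times that in 24h CM. Csf1 differed by −0.50, Cxcl12 was 0.77 higher in CM, and Ccl2 was under the minimum in both. In preconfluent cells 0 of 7 members differed by the rule, where 2.23% of 10770 genes were higher in CM and 1.23% lower. The differences there ran from −0.38 for Cxcl12 to 0.65 for Csf1, and their median was 0.12.

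Taking the 3 stages as blocks, limma called 0 of 11463 genes for the medium, with 143 at an unadjusted p under 0.05, 2 of them members. The share of genes called was 0% in each direction. Those members were Cxcl1, with an estimate of −1.26 (SE 0.35), and Ccl7, with −0.87 (SE 0.30), and both were lower in CM at 3 of 3 stages. Cxcl5, at −1.24 (SE 0.48), and Ccl2, at −0.80 (SE 0.51), were higher in CM in preconfluent cells. The adjusted p in limma was 1 for each of the 7 members. Without the preconfluent pair limma again called 0 genes, with 564 of 11309 at an unadjusted p under 0.05, 4 of them members. The estimates became −1.95 for Cxcl5, −1.26 for Ccl2 and −0.58 for Csf1.

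The authors' deposited tables give a Cuffdiff p-value and q-value for each comparison of 2 libraries. Such a p-value compares those libraries and not the conditions. Of 70 comparisons of members in the authors' deposited tables, 59 were tested, 10 had p under 0.05 and 0 had q under 0.1. The share of all genes under these limits was not counted, so whether the members stood out is unknown. The comparisons also share libraries, 0h Control among them. The lowest q in the authors' deposited tables was 0.389, for Cxcl5 between 0h Control and 24h CM (p = 0.00475). For 4h MDI against 4h CM the authors' deposited table gives p of 0.0276 for Cxcl1, 0.0329 for Ccl2 and 0.0332 for Cxcl5.

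Other chemokines did not share a common course. Of 18 other CC chemokines, 17 were in the tables, 6 were measured and 6 were listed at 0 in every library. At 24 h against 0h, Ccl8, Ccl9 and Ccl11 fell and Ccl25 rose in limma, with a list median of −0.83 beside 0.00 over all genes. At 4 h against 0h, Ccl17 rose by 1.74 (SE 0.32, limma adjusted p = 0.0395) and the list median was −0.11, beside −0.04 over all genes. From 4 h to 24 h, Ccl8 and Ccl11 fell and Ccl25 rose in limma, where 8.71% of all genes fell and 9.43% rose. The list median there was −0.71, beside −0.01 over all genes. Of 11 other CXC, CX3C and XC chemokines, 3 were measured. Cx3cl1, the membrane-bound chemokine fractalkine, had an FPKM of 15.5 in 0h Control, 102 in 4h MDI, 87.6 in 4h CM, 24.4 in 24h MDI, 41.2 in 24h CM, 4.94 in Pro-MDI and 9.06 in Pro-CM. It rose at 4 h by 2.54 on the log2 scale (SE 0.36, limma adjusted p = 0.0306). Cxcl13, which attracts B cells, rose at 24 h against 0h by 2.44 (SE 0.25, limma adjusted p = 0.0193), from an FPKM of 0.0802 to 5.35 in MDI and 4.44 in CM. From 4 h to 24 h Cx3cl1 fell and Cxcl13 rose in limma, and the median of this list was −0.45.

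The receptors through which the members act on leukocytes were under an FPKM of 1 in every library. Of 23 listed chemokine receptors 1 was measured and 6 were listed at 0 in every library, Cxcr4, Ccr2 and Cxcr3 among them. The measured one, Ackr3, which takes up CXCL12, had an FPKM of 12.7 in 0h Control, 69.3 in 4h MDI, 26.5 in 4h CM, 6.10 in 24h MDI, 5.81 in 24h CM, 9.43 in Pro-MDI and 16.8 in Pro-CM. Its highest level was in the same library as that of Csf1, Ccl2 and Ccl5, and from 4 h to 24 h it fell by 2.66 (SE 0.52, limma adjusted p = 0.0399). Csf1r, the receptor for CSF1, ranged from an FPKM of 0.0333 in 24h MDI to 0.58 in Pro-CM. Of 7 other colony-stimulating factors and receptors 2 were measured, and Csf2rb, a receptor subunit for CSF2 and related cytokines, rose at 4 h by 1.30 (SE 0.22, limma adjusted p = 0.0353) and fell again between 4 h and 24 h. Of 3 proteases that shed or trim chemokines, Adam10 and Adam17 were measured and neither passed limma in any contrast, and Dpp4 was at 0 in all but Pro-CM.

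Among 22 cytokines, sensors and regulators that govern chemokine genes, 17 were measured. At 4 h against 0h 5 rose and 3 fell in limma, where 8.23% and 7.99% of all genes did, and the list median was 0.19 beside −0.04 over all genes. Those that rose were the cytokine receptor Il1r1, the NF-kB inhibitor Nfkbia, its relative Nfkbiz and the mRNA decay factors Zfp36 and Zc3h12a. Those that fell were the sensors Tlr3 and Tlr4 and the interferon-pathway factor Irf1. Zfp36 had an FPKM of 11.6 in 0h Control, 78.2 in 4h MDI, 51.1 in 4h CM, 32.0 in 24h MDI, 32.9 in 24h CM, 21.6 in Pro-MDI and 13.7 in Pro-CM. It was highest in 4h MDI, where Cxcl1 was also above 0h. In 4h CM Cxcl1 had an FPKM of 7.58 beside 6.05 in 0h Control. The highest levels of Cxcl1 were in the preconfluent libraries, where Zfp36 was lower than at 4 h. A link between Zfp36 and Cxcl1 was not tested. At 24 h against 0h Nfkbiz, Zfp36 and Il17ra rose, Tlr3, Tlr4 and Irf1 were among those that fell, and the list median was 0.48 beside 0.00 over all genes. Nfkb1 and Rela, subunits of NF-kB, passed in no limma contrast. Nfkb1 had an FPKM of 24.9 in 0h Control, 38.5 in 4h MDI and 16.4 in 4h CM. Among the 14 list genes measured in that pair, it was the 1 that was lower in 4h CM than in 4h MDI by the rule of size, and 0 were higher. Of all 10800 genes 2.95% were lower and 1.1% higher. Rela differed by 0.05 in that pair, and Ackr3, outside this list, by −1.36. A link between Nfkb1 and the members was not tested. Tnf, Il1b and Ifnb1, cytokines that induce these genes, were at 0 or had an FPKM of at most 0.0414. Il6, another cytokine of the list, had an FPKM of 0.0517 in 0h Control and 1.17 in Pro-MDI. In the other libraries Il6 ran from 0.419 in 24h CM to 0.784 in 4h MDI.

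**Figure D3:**
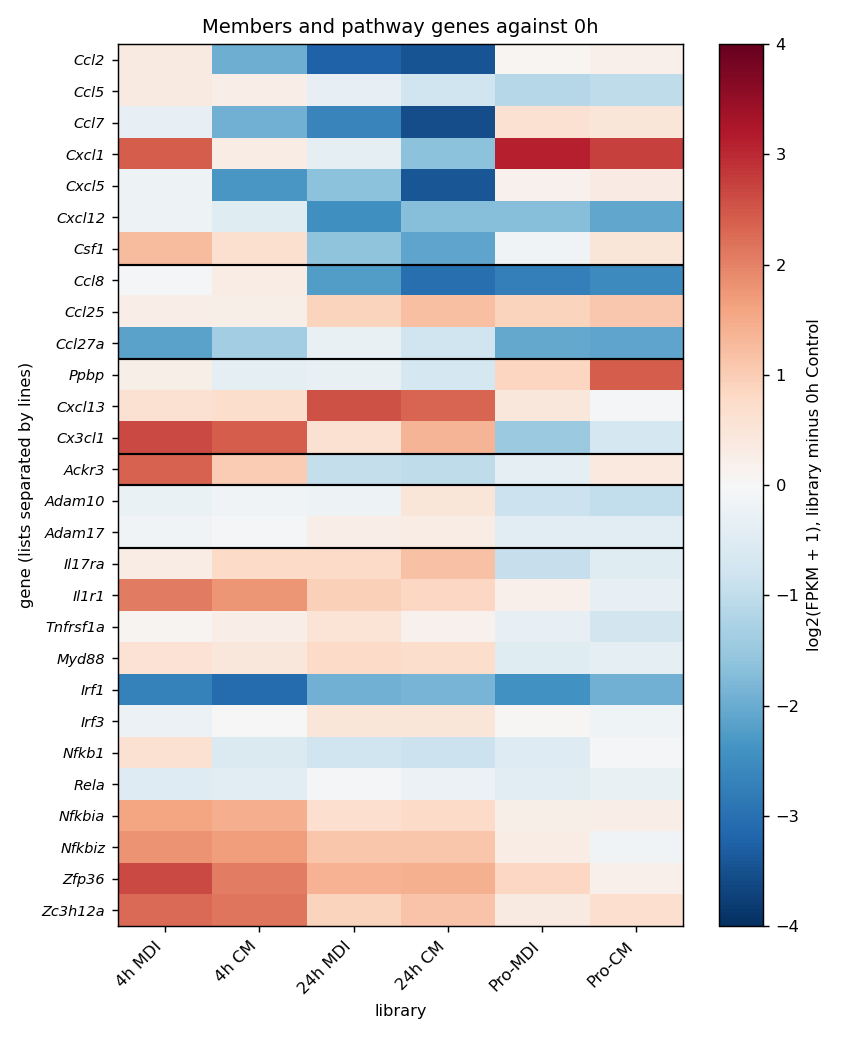
Difference in log2(FPKM + 1) of each treated library from 0h Control (colour, from −4 in blue to 4 in red) for the 7 measured members (top block) and for genes of the pathway lists chosen among those that reach an FPKM of 5 in a library, with black lines between lists. The member block is mostly blue at 24 h, while Zfp36, Nfkbia, Nfkbiz and Zc3h12a are red at 4 h.

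Markers of other cell types were checked, since macrophages and endothelial cells make many chemokines. Of 10 macrophage markers, 2 reached an FPKM of 1 in each library, and their summed FPKM ran from 3.235 in 24h CM to 10.1 in Pro-CM. It was 9.99 in 4h MDI and 6.14 in 4h CM, so that it was lower in CM at 4 h together with Ccl2, Ccl7, Cxcl1 and Cxcl5, and most of it was Cd14 and Cd68. The defining markers Ptprc and Emr1 were at 0 in every library but for a Ptprc FPKM of 0.00326 in Pro-CM. The 4 endothelial markers summed to at most 0.311. The 7 preadipocyte markers summed to an FPKM of 3061 in 0h Control, 3008 in 4h MDI, 2796 in 4h CM, 1531 in 24h MDI, 1301 in 24h CM, 1262 in Pro-MDI and 1314 in Pro-CM, and most of the sum was Col1a1 and Dlk1. Like Cxcl12, the sum was higher in the confluent and 4 h libraries than in the others, but single markers differed. Ly6a had an FPKM of 26.0 in 0h Control, 371 at 24 h in MDI and 116 in CM. Thy1 had 100.1 in 0h Control and 294 in 4h MDI. The 8 adipocyte markers summed to between 72.4 in Pro-CM and 517 in 24h CM, where most of the sum was Lpl and Fabp4. Lpl had an FPKM of 339 in 24h CM and 45.7 in 24h MDI, and Fabp4 had 108 and 30.4. By the rule of size 4 of 6 measured adipocyte markers were higher in 24h CM than in 24h MDI and 0 lower. Of all 10972 genes 1.92% were higher and 1.49% lower. Adipoq, which defines mature adipocytes, stayed under an FPKM of 1 in every library, with 0.930 in 24h CM and at most 0.208, in Pro-MDI, elsewhere. The part of these marker levels in the members' differences was not tested.

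Members with neighbouring genes were set beside their neighbours on the chromosome. Ccl2 and Ccl7 lie 8259 bases apart on chromosome 11, followed by Ccl11, Ccl12 and Ccl8. Ccl8, another monocyte attractant, had an FPKM of 11.6 in 0h Control, 10.99 in 4h MDI, 14.4 in 4h CM, 1.70 in 24h MDI, 0.564 in 24h CM, 0.897 in Pro-MDI and 1.15 in Pro-CM. Like Ccl2 and Ccl7 it was low at 24 h, but it was not low in 4h CM and was low in preconfluent cells, where Ccl2 and Ccl7 were high. Ccl11 had an FPKM of 1.36 in 0h Control and at most 0.0691 in the 24 h and preconfluent libraries, and Ccl12 was at 0 in all. On chromosome 5, Cxcl5 and Cxcl1 are separated by Ppbp, Pf4, Cxcl3 and Cxcl15, and Cxcl2 follows Cxcl1 after 10783 bases. Cxcl2 and Cxcl3, which share the receptor CXCR2 with Cxcl1, had an FPKM of at most 0.0747 in any library. Ppbp, a further ligand of that receptor, had an FPKM of 2.29 in Pro-MDI and 8.73 in Pro-CM and at most 1.13 elsewhere.

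**Figure D4:**
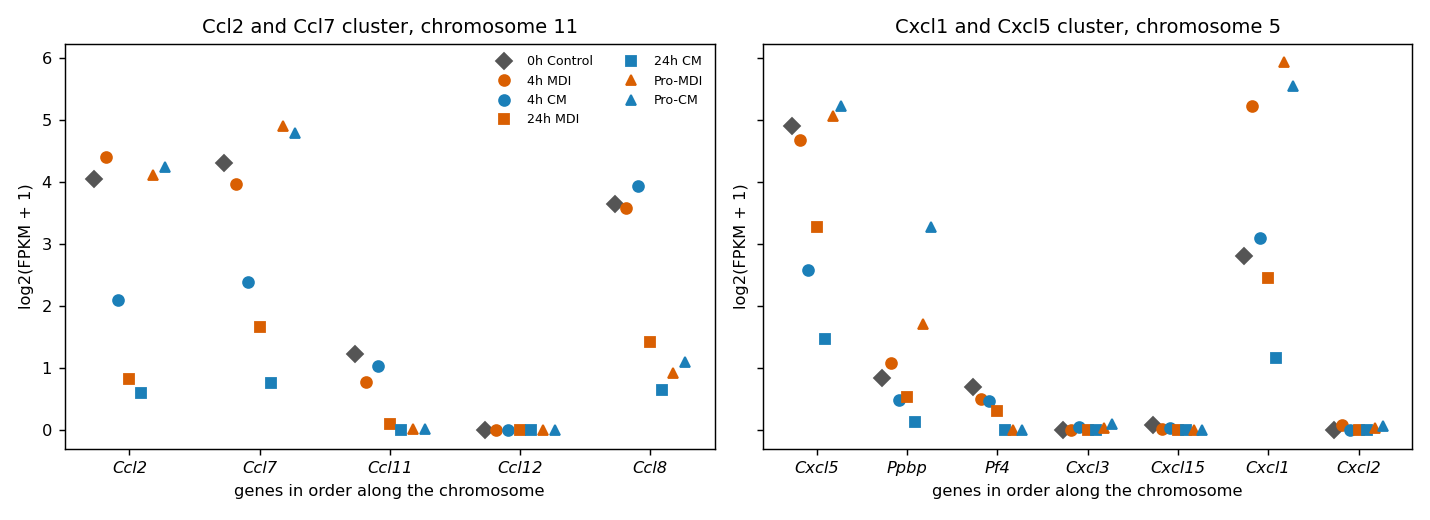
Level in log2(FPKM + 1) (y axis) of the genes of 2 chemokine clusters in chromosomal order (x axis, not to scale), with 1 symbol per library. In the chromosome 11 cluster the preconfluent libraries are high for Ccl2 and Ccl7 and low for Ccl8, and in the chromosome 5 cluster Cxcl2, Cxcl3 and Cxcl15 lie near 0.

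Across the 7 libraries the patterns of Ccl2, Ccl7, Cxcl1 and Cxcl5 resembled each other, and the order of likeness differed between Pearson's r and Spearman's rho. Pearson's r of log2(FPKM + 1) was 0.97 for Ccl2 with Ccl7 (Spearman's rho 0.75), 0.96 for Ccl7 with Cxcl5 (rho 0.93) and 0.91 for Ccl2 with Cxcl5 (rho 0.75), each over 7 libraries. Cxcl1 had r of 0.87 with Ccl7 (rho 0.89), 0.83 with Ccl2 (rho 0.82) and 0.82 with Cxcl5 (rho 0.79). Csf1 was not clearly apart from them by r, with 0.81 with Ccl2 (rho 0.75) and 0.72 with Ccl7 (rho 0.36). Its r was 0.72 with Cxcl1 (rho 0.54) and 0.63 with Cxcl5 (rho 0.29). Ccl5 stood apart, with r of −0.15 with Ccl7 (rho −0.39) and 0.76 with Cxcl12 (rho 0.57). All these values share the same 7 libraries and the same scaling, and libraries of a stage were alike, so they are descriptions only.

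Among 9655 genes that reached an FPKM of 5 somewhere, the genes most like each measured member were found in the same way over 7 libraries. Ccl2 was closest to Rsu1 (r = 0.993, rho = 0.96) and B630005N14Rik (r = 0.986, rho = 0.89), and Ccl7 to Glipr2 (r = 0.986, rho = 1.00) and Fam131b (r = 0.983, rho = 0.96). Ccl5 was closest to Dlk1 (r = 0.990, rho = 1.00), a surface protein of preadipocytes, and Serpine2 (r = 0.989, rho = 1.00). Cxcl1 was closest to Tmsb4x (r = 0.974, rho = 0.96) and Anapc4 (r = 0.972, rho = 0.96), and Cxcl5 to Maea (r = 0.970, rho = 0.93) and Yif1b (r = 0.967, rho = 1.00). Cxcl12 was closest to Asah1 (r = 0.994, rho = 0.93) and the collagen chain Col4a5 (r = 0.989, rho = 0.96), and Csf1 to Rnf41 (r = 0.995, rho = 1.00) and Qtrt1 (r = 0.987, rho = 0.96). Pearson's r does not take the size of a change into account. Anapc4 ran only from an FPKM of 44.2 in 24h CM to 56.5 in Pro-CM, and Maea from 54.6 in 24h CM to 74.3 in Pro-MDI. Rnf41 ran from 6.78 in 24h CM to 10.6 in 4h MDI, while Tmsb4x ran from 114 in 24h CM to 1893 in Pro-CM. The number of genes with r of at least 0.9 ran from 23 for Cxcl5 to 224 for Cxcl12, so likeness over so few libraries singles out no gene.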

How the data were processed

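RNA-seq values came from 7 libraries of 3T3-L1 cells, 1 per condition. Total RNA was extracted with Trizol and made into standard Illumina libraries, per the labels' protocols. TopHat2 2.0.13 and Cuffdiff 2.2.0 were used, per the submitters' processing notes, and no genome build, annotation or strand setting was given in the sources used here. The authors deposited 7 full tables, each of which holds the FPKM of every gene in 2 libraries, per the file headers. The deposited tables also hold a p-value and a q-value for each comparison, which are quoted only as the authors' values. The FPKM of a library did not differ between tables beyond 1.1e-16, so the tables were joined into 1 matrix of 23996 genes. In each of them 1 line held no gene, which is not reported here, and some list genes are likewise not reported. All 7 libraries could be matched to their labels, and depth is unknown.

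Pairs of libraries were compared by size, with no test (log2(FPKM + 1) differing by 1 or more, FPKM reaching 1 in either library). limma 3.58.1 in R 4.3.3, with an intensity trend and Benjamini-Hochberg adjustment over all genes at 0.05, tested the medium (6 libraries, stage as block) and the times (7 libraries, stage and medium). Of these steps, only the limma fit was tried on simulated data. Sequences came from RefSeq promoters (GRCm38.p6) and the GRCm38 genome. Python 3.11.15 with pandas 2.3.3, numpy 2.4.6, scipy 1.17.1 and matplotlib 3.10.9 was used.

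The members, the gene lists and the tests were chosen with earlier results of these data known. All members are named, list genes only where they reached an FPKM of 1 in some library or define a cell type or receptor, and for each measured member the 2 genes with the highest Pearson's r. Csf1r, Cxcr4, Ccr2, Cxcr3, Ccl12, Cxcl2, Cxcl3, Cxcl15, Pf4, Dpp4, Tnf, Il1b and Ifnb1, which fall outside that rule, were named after their values were seen. The settings varied were the pseudocount (0.1 or 5), the filter (none, or FPKM reaching 5), the scaling (TPM, or a median ratio of 1), the limma trend and the preconfluent pair, left out.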

Additional observations from a re-analysis of the deposited data

Results flagged for a closer look

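The difference between conditioned medium and fresh MDI had opposite directions at different stages, at least 1 apart in log2(FPKM + 1), for 4 members, with 1 pair of libraries per stage. Ccl5 also changed direction but its stages lay 0.59 apart. For Ccl2, CM minus MDI was −2.31 at 4 h and 0.13 in preconfluent cells, 2.44 apart. Cxcl5 was lower in CM at 4 h and 24 h and higher in preconfluent cells, with 2.27 between the preconfluent and the 4 h pair. Csf1 had the same directions, with 1.30 between those pairs. Cxcl12 was higher in CM at 24 h and lower in preconfluent cells, 1.15 apart. These differences between stages were not tested, since each stage had 1 pair.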

How the results depend on the processing

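No paired analysis was possible because no condition has replicates that share numbers across conditions. The medium effect pairs MDI and CM by stage alone. Under other settings, 367 differences of members between 2 libraries were counted. Of these, 358 kept their side of the rule, 7 no longer met it and 2 newly met it. A turn of direction was counted only for differences that met the rule as reported or under the other setting, and 0 turned. Of 224 limma changes of members, 205 kept their direction and their call or lack of one, 8 lost the call, 11 gained it and 0 turned direction. Of 88 counts of members, 79 stayed within 1.5 times the reported count. With a pseudocount of 5, 1 member was lower in 24h CM than in 24h MDI, where 83 of 10972 genes were. At that pseudocount 3 members were lower in 24h CM than in 4h CM, where 465 of 11111 genes were. With an FPKM of at least 5, 1 member was lower in 24h CM than in 24h MDI, where 133 of 8532 genes were. On the TPM scale 1 member was higher in 4h MDI than in 0h Control, and limma called 5 for 24 h against 0h. Without the preconfluent pair limma called 1 member for 4 h against 0h and 4 for 24 h against 0h. With no filter on low values limma called 0 members for 24 h against 0h and 0 for 24 h against 4 h. In limma, 5 of 10 members had an unadjusted p under 0.05 in each contrast, beside 4977 and 5192 of 23996 genes, in that order. The cause of these shifts was not tested. Depth is unknown, and without replicates neither the levels nor the 2-fold calls have an error.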
